A study of Arabidopsis thaliana with 72 samples.

Results

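The 9 genes described here make the aliphatic glucosinolates of Arabidopsis thaliana or switch that synthesis on. They were taken by gene identifier from the 33602 genes of a deposited count matrix: MYB28 (AT5G61420), MYB29 (AT5G07690), BCAT4 (AT3G19710), MAM1 (AT5G23010), CYP79F1 (AT1G16410), CYP79F2 (AT1G16400), CYP83A1 (AT4G13770), SOT17 (AT1G18590) and SOT18 (AT1G74090). All 9 passed the filter on low counts, which left 21241 genes for testing.

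Aliphatic glucosinolates are sulfur-rich defence compounds of the cabbage family, made from methionine. The methionine side chain is first lengthened, the amino acid is then oxidised through an aldoxime, and the resulting core is glucosylated and sulfated. When tissue is damaged, myrosinases release isothiocyanates and nitriles from the stored compounds, and in leaves the synthesis genes are known to follow light and the time of day.

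The study asked what follows when plasmodesmata, the channels between plant cells, are closed. Leaves of 5-week-old plants, kept on sucrose-containing MS agar with 10 h of light at 22 °C, received by brush either 20 µM estradiol, as its acetate ester, or a mock solution of 0.1% DMSO. The wetting agent Silwet L-77, at 0.01%, is listed once after both solutions. Leaves were harvested after 12, 24, 48 or 72 h. The 3 genotypes were wild type Col-0 and the lines icals3m and PD-plug, in both of which an estradiol-inducible LexA construct closes plasmodesmata. Each of the 24 combinations of genotype, treatment and time had 3 libraries, 72 in all, and each library came from 2 leaves of each of 4 plants in a single pool. Col-0 carried no construct, so Col-0 with estradiol served as the control for the hormone itself. The labels call the libraries of a group biological replicates and give no batch, harvest hour or number of independent transgenic lines, so each construct stands for the line tested.

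Library totals ran from 33207020 to 55367880 counts. CALS3, the callose synthase gene of the icals3m construct, measured 1447 to 5857 CPM (counts scaled to the size of the library) in the 12 estradiol libraries of icals3m, 168 to 285 in its DMSO libraries and 79.2 to 121 in all others. The mCherry transcript carried by PD-plug measured 3108 to 29837 CPM with estradiol and 7.09 to 120 CPM with DMSO in that line, against at most 0.748 CPM in the others. These mCherry values come from a second deposited matrix, named for STAR, and are scaled to library totals alone. Both transcripts were thus above the level of the other genotypes in the mock libraries of their line as well. The CALS3 count does not separate the construct from the native gene. Leaf identity was checked with 16 marker genes: the 3 mesophyll markers summed to a median of 23205 CPM, and the 3 root markers to 2.43 CPM, with RHD6 and COBL9 at 0 in every library. The 2 phloem markers summed to a median of 460 CPM and the remaining types to less. A sum over all 16 therefore mostly follows the mesophyll genes RBCS1A, RCA and LHCB2.1. LHCB2.1 alone ran from 2.67 to 6319 CPM over the libraries. Leaves were sampled whole, so fewer cells expressing a gene and less RNA per cell cannot be told apart.

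The sequences upstream of 5 of the genes, picked after their values were seen, are shown. Results on genotype that follow also rest on SOT18, SOT17 and MAM1, whose sequences are not shown. Each sequence shown is the 250 bases before the annotated transcription start, 5′ to 3′ on the gene's strand, read from the RefSeq genome of build TAIR10.1. Capitals mark a G-box (CACGTG, the core bound by MYC-type factors) or an AC element (a class of motif bound by R2R3-MYB factors, searched here as ACCTACC, as the variant ACCAACC and as the variant ACCTAAC) on either strand.
MYB29, chr5:2446419-2446668, plus strand: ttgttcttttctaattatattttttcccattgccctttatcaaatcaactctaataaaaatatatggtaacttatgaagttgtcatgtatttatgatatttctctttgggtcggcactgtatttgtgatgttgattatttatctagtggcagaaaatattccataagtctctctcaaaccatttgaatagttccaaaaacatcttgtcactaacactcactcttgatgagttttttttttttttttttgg
BCAT4, chr3:6849583-6849832, minus strand: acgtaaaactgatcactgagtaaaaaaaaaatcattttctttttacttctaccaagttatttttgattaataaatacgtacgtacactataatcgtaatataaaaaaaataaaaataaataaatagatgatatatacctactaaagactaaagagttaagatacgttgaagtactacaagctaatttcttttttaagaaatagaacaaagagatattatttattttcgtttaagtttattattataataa
CYP79F1, chr1:5608432-5608681, plus strand: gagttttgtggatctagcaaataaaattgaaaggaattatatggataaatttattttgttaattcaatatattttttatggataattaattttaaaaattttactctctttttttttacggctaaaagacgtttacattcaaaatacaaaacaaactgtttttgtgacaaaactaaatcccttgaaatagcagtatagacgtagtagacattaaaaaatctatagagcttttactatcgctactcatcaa
CYP79F2, chr1:5604794-5605043, plus strand: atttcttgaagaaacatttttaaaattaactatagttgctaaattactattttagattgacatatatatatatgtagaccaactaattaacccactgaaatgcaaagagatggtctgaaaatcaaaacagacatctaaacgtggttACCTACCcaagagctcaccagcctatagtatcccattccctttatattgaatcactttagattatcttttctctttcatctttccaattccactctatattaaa
CYP83A1, chr4:7992430-7992679, minus strand: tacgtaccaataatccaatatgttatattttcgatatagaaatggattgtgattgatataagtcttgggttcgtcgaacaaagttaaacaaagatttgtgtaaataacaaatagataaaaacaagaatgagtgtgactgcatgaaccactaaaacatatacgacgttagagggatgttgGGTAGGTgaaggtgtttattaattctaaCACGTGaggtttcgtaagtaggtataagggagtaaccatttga
CYP83A1 held the G-box, 38 bases before its start, and it was the only gene of the 9 to do so. A G-box occurred in 6.49% of 27443 promoter windows of the same length. AC elements were found upstream of CYP79F2, CYP83A1 and SOT17, 3 of the 9 genes, against 6.12% of all windows. The related sequence CACATG occurred in none of the 9 and in 11.1% of all windows. A match describes letters in this window and not a bound site.

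Among the 9 are close relatives. The coding sequences of CYP79F1 and CYP79F2, neighbours on chromosome 1, were 91.9% identical, those of SOT17 and SOT18 77.9%, and those of MYB28 and MYB29 76.1%. Of all 75-base stretches, 26 were shared between the CYP79F1 and CYP79F2 transcripts and none between the sulfotransferases or the MYB genes. Part of the CYP79F2 count could therefore belong to CYP79F1. In mock-treated Col-0 at 24 h CYP79F1 averaged 262 CPM and CYP79F2 7.36 CPM, and the size of that part was not measured. BCAT4 overlaps AT3G19700, which shared 233 of its 1377 stretches but had a mean count of only 0.278.

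The largest movement of these genes was between the first harvest and the later ones. In mock-treated Col-0 all 9 rose from 12 to 24 h (edgeR quasi-likelihood test, Benjamini-Hochberg adjusted p under 0.05 over all tested genes). The share of all genes called in that comparison was 62.7%, with 31.3% higher. The median log2 fold change of the 9 was 2.80, against -0.02 over all genes. MYB29, a transcription factor that activates the pathway, measured 0.412, 0.817 and 0.196 CPM in the earlier libraries, and 41.1, 40.4 and 33.8 CPM in the later ones. Every library at 24 h lay far above every library at 12 h, and the log2 fold change was 6.33 (SE 0.33, edgeR adjusted p = 6.8e-23).

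CYP79F1, which turns chain-elongated methionine into the aldoxime, went from 0.823, 2.33 and 1.93 CPM to 312, 281 and 193 CPM. The groups were apart without overlap, with a log2 fold change of 7.23 (SE 0.46, edgeR adjusted p = 2.83e-19). BCAT4, the aminotransferase that starts side-chain elongation, went from 1.76, 3.63 and 1.44 to 196, 191 and 122 CPM, a log2 fold change of 6.21 (SE 0.37). CYP83A1, which oxidises the aldoxime, rose by 3.43 and MAM1, the condensing enzyme of the elongation cycle, by 2.80 on the same scale. Smaller rises were found for CYP79F2, at 2.51, and for the sulfotransferases of the last step, at 1.84 for SOT18 and 0.84 for SOT17.

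MYB28, the other activator of the pathway, had the smallest fold change of the 9. Its 12 h libraries held 31.8, 43.4 and 42.0 CPM, and those of 24 h held 72.5, 66.5 and 62.8 CPM, a log2 fold change of 0.78 (SE 0.19, edgeR adjusted p = 3.95e-04). That value depended on the count matrix, since in the second deposited matrix, named for STAR, it was 0.17 (SE 0.68, adjusted p = 0.868). Between the 2 matrices the log2 counts of MYB28 correlated at only r = 0.29 over the 72 libraries, whereas the other 8 genes reached 0.98 or more. Statements on MYB28 therefore hold for the first matrix only.

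In mock-treated Col-0 none of the 9 genes was called from 24 to 48 h, when 27.1% of all genes were, nor from 48 to 72 h, when 12.8% were. At an unadjusted p under 0.05 the counts were 0 and 1. Here and in every comparison below in which edgeR called none of the 9, DESeq2 called none either. CYP79F1, for instance, averaged 262 ± 61.5, 251 ± 19.0 and 271 ± 32.6 CPM at 24, 48 and 72 h (SD, n = 3). Of 37 other tested genes of the pathway, described below, 3 were higher and 6 lower at 48 h than at 24 h. From 48 to 72 h 3 of them were higher and 0 lower.

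**Figure D1:**
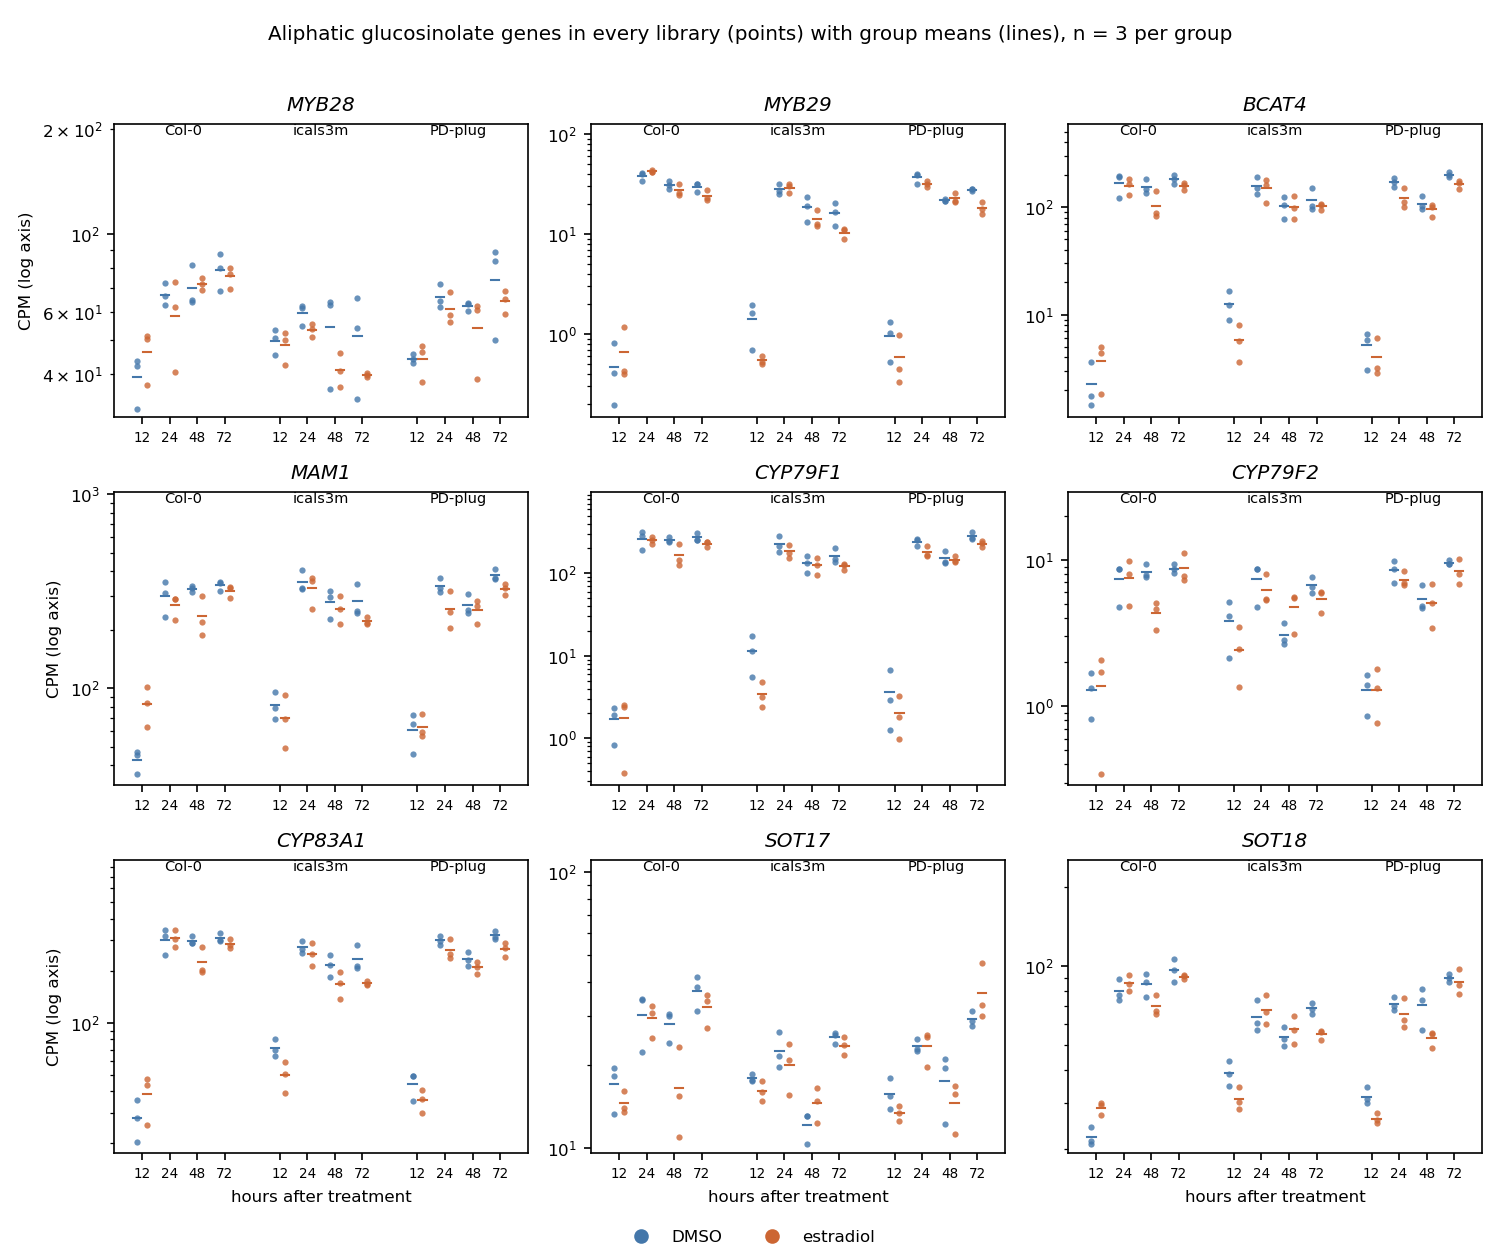
CPM on log axes of the 9 genes in all 72 libraries (points) with group means (lines), by genotype and hours after treatment, DMSO in blue and estradiol in orange. In each genotype MYB29, BCAT4, MAM1, CYP79F1, CYP83A1 and SOT18 were lower at 12 h than at any later time.

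Most of the other pathway genes moved with the 9 genes from 12 to 24 h. Of 38 other listed genes of aliphatic glucosinolate regulation, synthesis, transport and breakdown, 37 were tested, and 29 rose and 1 fell from 12 to 24 h, with a median log2 fold change of 1.296. The gene that fell, MYC3, a partner of the MYB factors, was picked out after its value was seen (log2 fold change -0.67, edgeR adjusted p = 4.51e-11). Among those that rose were the elongation enzymes IPMI-SSU3 (7.49) and IPMDH1 (4.66), the side-chain oxygenase GS-OX1 (5.59) and the chloroplast transporter BAT5 (4.28). The indole branch, which makes the tryptophan-derived glucosinolates, went mostly the other way, with 1 of 7 genes higher and 5 lower and a median of -1.36. Over the same interval the clock genes CCA1 and TOC1, chosen after the values were seen, went from 0.791 to 190 CPM and from 132 to 11.7 CPM, and at 48 h CCA1 was at 14.7 CPM. The labels give no harvest hour, so hours after painting and time of day cannot be told apart. Of the 14 cell type markers tested, 11 were also higher and 2 lower at 24 h, with log2 fold changes from -1.46 to 10.4. All 16 summed to 15507 to 16623 CPM at 12 h and 32176 to 33639 CPM at 24 h.

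**Figure D2:**
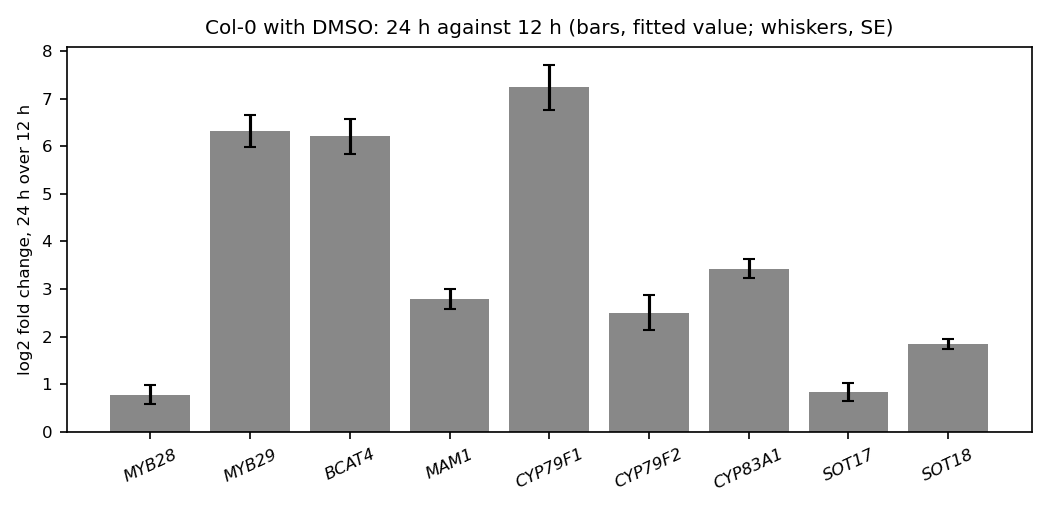
Log2 fold change of each gene from 12 to 24 h in mock-treated Col-0, with standard errors from edgeR (3 libraries a time). All bars are above 0, from 0.78 for MYB28 to 7.23 for CYP79F1.

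Estradiol against DMSO gave few calls among the 9 genes at times later than 12 h. In Col-0, which carries no construct, 3 genes rose at 12 h, where 38.6% of all genes were called, and none fell, so the share of the 9 was no higher than that of all genes. MAM1 measured 35.9, 47.1 and 45.4 CPM with DMSO and 102, 63.1 and 84.2 CPM with estradiol. The treated libraries were all above the mock libraries, and the log2 fold change was 0.95 (SE 0.20, edgeR adjusted p = 9.88e-05). SOT18 rose by 0.37 (SE 0.11, adjusted p = 0.00499), from 21.1, 21.4 and 24.3 CPM to 29.5, 26.9 and 30.0 CPM, again without overlap. CYP83A1 was called at 0.47 (adjusted p = 0.0343), but its groups overlapped, and the call was lost in 4 of 6 fits that each left out 1 library, those without estradiol or mock replicate 1 or 3 (adjusted p of 0.0769 to 0.261). Without mock replicate 2, BCAT4 and MYB29 were called as well, which made 5 genes.

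At 24 h and 72 h in Col-0 none of the 9 was called or had an unadjusted p under 0.05, where 0.984% and 0.0141% of all genes were called. At 48 h, where 6.67% of all genes were called, 8 of the 9 values were below 0 with a median of -0.47, against 0.02 for all genes. At an unadjusted p under 0.05 there were 6 genes. SOT17 was the gene called. It measured 30.0, 30.5 and 24.0 CPM with DMSO and 23.2, 11.0 and 15.4 CPM with estradiol, all 3 treated libraries lying lower, with a log2 fold change of -0.76 (SE 0.20, edgeR adjusted p = 0.011). That call was lost without estradiol replicate 2 (edgeR adjusted p = 0.12), estradiol replicate 3 (0.0598) or mock replicate 1 (0.0687). In a fit restricted to the libraries compared it was lost too (0.246), and CYP79F2 was called in its place (-0.95, edgeR adjusted p = 0.0497). CYP79F2 (-0.94, adjusted p = 0.097) and BCAT4 (-0.58, adjusted p = 0.235) lay lower without being called.

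In icals3m, 5 of the 9 fell at 12 h and all 9 values were below 0, where 17.2% of all genes were called and 8.7% were lower. CYP79F1 measured 5.50, 11.6 and 17.3 CPM with DMSO and 3.18, 4.77 and 2.40 CPM with estradiol. Every treated library lay below every mock library, at a log2 fold change of -1.75 (SE 0.39, edgeR adjusted p = 9.18e-04). MYB29 fell by 1.39 (SE 0.35, adjusted p = 0.00381), from 0.692, 1.63 and 1.95 CPM to 0.533, 0.610 and 0.50 CPM. BCAT4 fell by 1.14, CYP83A1 by 0.53 and SOT18 by 0.32. MYB28, at -0.04, and SOT17, at -0.15, were not called. CYP79F1 and MYB29 kept their calls in all 6 fits that each left out a library. CYP83A1 and SOT18 lost theirs without estradiol replicate 1 or mock replicate 2, which left 3 genes called, and BCAT4 lost its call with them without replicate 3 of either treatment, which left 2. In a fit restricted to the libraries compared, MYB29 and SOT18 were called and CYP79F1 was not (adjusted p = 0.0808).

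Later effects in icals3m were called for few of these genes. No gene was called at 24 h or 48 h, where 6.48% and 18.3% of all genes were, and at an unadjusted p under 0.05 there were 0 and 2. At 72 h, where 21.5% of all genes were called, 2 of the 9 were called, a share near that of all genes. All 9 values were below 0, with a median of -0.33. MYB29 measured 20.3, 16.5 and 11.9 CPM with DMSO and 10.9, 11.2 and 8.86 CPM with estradiol, without overlap (-0.65, SE 0.24, edgeR adjusted p = 0.0465). SOT18 went from 65.6, 72.1 and 68.6 CPM to 56.6, 56.1 and 52.3 CPM (-0.32, SE 0.11, adjusted p = 0.023). Both calls were lost in the STAR matrix. Of the 6 fits without a library, MYB29 was called in the one without mock replicate 3 (adjusted p of 0.0665 to 0.262 in the others), and SOT18 lost its call without estradiol replicate 3 or mock replicate 2 or 3. The marker genes moved at the same time, with 0 of 14 higher and 6 lower. All 16, dominated by the mesophyll genes, summed to 22115 to 23073 CPM with DMSO and 15683 to 16889 CPM with estradiol. The part of the markers in these falls was not tested.

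In PD-plug SOT18 was called at 12 and 48 h and no other gene at any time, a share of the 9 below that of all genes. At 12 h, where 27.1% of all genes were called, it measured 34.4, 31.0 and 29.9 CPM with DMSO and 25.2, 27.5 and 25.9 CPM with estradiol. The groups were apart, but the log2 fold change of -0.28 (SE 0.11, edgeR adjusted p = 0.0476) lost its call in 5 of 6 fits without a library and kept it without mock replicate 3. At 48 h, where 13.3% were called, SOT18 fell by 0.42 (SE 0.11, adjusted p = 0.00426), from 81.7, 74.3 and 56.7 CPM to 54.9, 55.4 and 48.7 CPM, and lost its call without the highest mock library, replicate 1 (adjusted p = 0.0822). The call was kept without each of the other 5 libraries, among them estradiol replicate 1, the library whose totals in the 2 matrices differed least. It was lost in a fit restricted to the libraries compared (adjusted p = 0.0639). The markers moved at that time too, with 0 of 14 higher and 2 lower, and all 16 summed to 26188 to 26775 CPM with DMSO and 20284 to 23271 CPM with estradiol; their part in the fall was not tested. No gene was called at 24 h (0.49% of all genes) or 72 h (2.65%), although 8 of 9 values were below 0 at both times. At an unadjusted p under 0.05 there was 1 gene at each of these times.

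**Figure D3:**
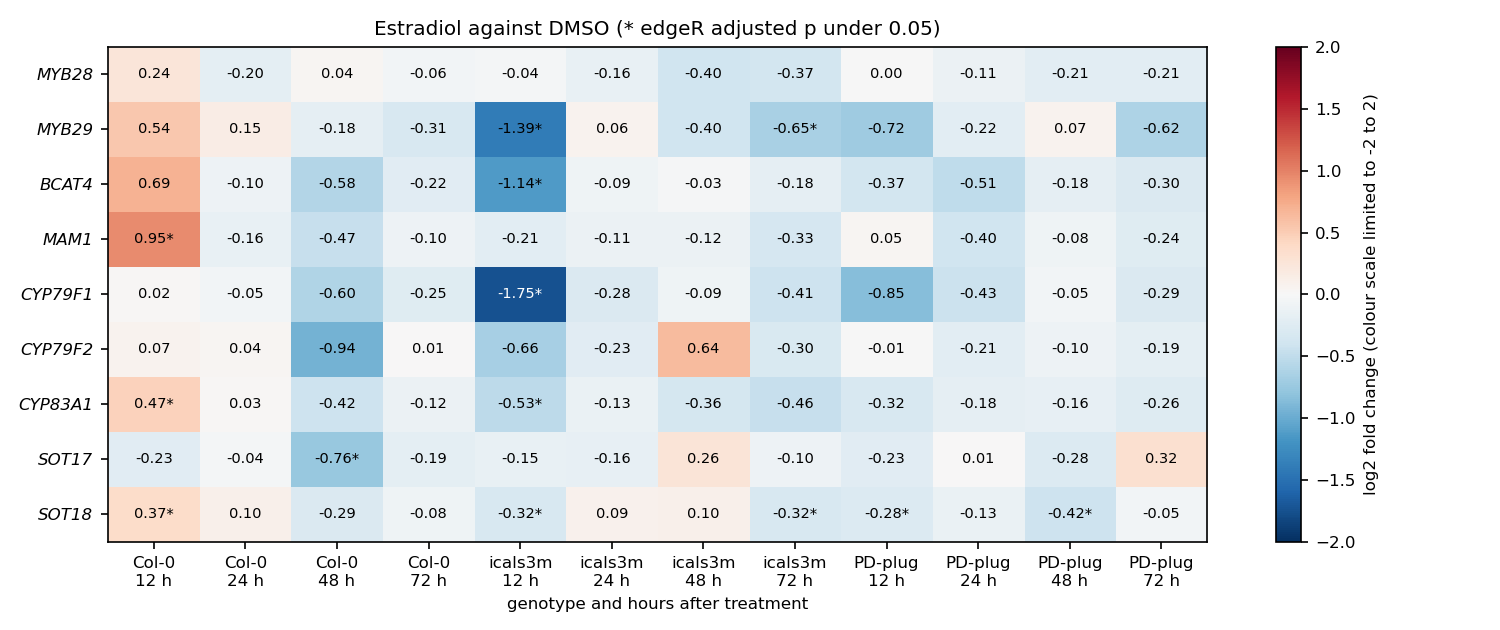
Log2 fold change of estradiol over DMSO for each gene in each genotype and at each time, with an asterisk where the edgeR adjusted p was under 0.05. The strongest values are the 12 h column of icals3m, down to -1.75 for CYP79F1, beside values from -0.23 to 0.95 in Col-0 at that time.

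Some of the 9 genes were called in Col-0, which carries no construct. The effect in each line was therefore read as its difference from the effect in Col-0. That difference also takes in the change in Col-0 and the mock level of each genotype, so it does not isolate the construct. At 12 h MAM1 averaged 61.2 CPM with DMSO and 63.2 with estradiol in PD-plug, and 42.8 and 83.0 CPM in Col-0. SOT18 averaged 39.0 and 31.2 CPM in icals3m, and 22.3 and 28.8 CPM in Col-0. Both lines are compared with the same Col-0 libraries, so the comparisons are not independent of each other. At 12 h icals3m differed from Col-0 for 5 of the 9 genes, all lower, where 3.16% of all genes were called and 1.63% lower. The median of the 9 was -0.99, against -0.02 for all genes. PD-plug differed for 3, all lower, where 8.3% were called and 6.19% lower, with a median of -0.78 against -0.01.

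By role, the activator MYB29 differed by -1.93 in icals3m (SE 0.54, edgeR adjusted p = 0.0337) and by -1.26 in PD-plug (SE 0.55, adjusted p = 0.172), and MYB28 by -0.29 and -0.25 without a call in either. Of the elongation enzymes, BCAT4 differed by -1.83 (SE 0.47, adjusted p = 0.0212) and -1.06 (SE 0.48, adjusted p = 0.201), and MAM1 by -1.17 (SE 0.28, adjusted p = 0.0116) and -0.91 (SE 0.28, adjusted p = 0.0291). Of these 4 genes, MAM1 was called in both lines. Of the core enzymes, CYP83A1 differed by -0.99 (SE 0.25, adjusted p = 0.0185) and -0.78 (SE 0.25, adjusted p = 0.0422), and CYP79F1 by -1.77 (SE 0.61, adjusted p = 0.0964) and -0.87 without a call. SOT18 differed by -0.69 (SE 0.15, adjusted p = 0.00572) and -0.65 (SE 0.15, adjusted p = 0.00318), and SOT17 by 0.07 and -0.01. No gene of the 9 was called between icals3m and PD-plug at 12 h, where 1.19% of all genes were, and none had an unadjusted p under 0.05.

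The SOT18 differences of both lines at 12 h held in all 12 fits without a library and in every other setting. The others did not: leaving out 1 library took the number of genes called to between 1 and 6 in icals3m and between 1 and 5 in PD-plug. In icals3m SOT18 alone was called without its estradiol replicate 3 or its mock replicate 3, and 2 genes were called without Col-0 estradiol replicate 1 or Col-0 mock replicate 3. MAM1 in icals3m kept its call in 9 of 12 such fits, CYP83A1 in 7, and BCAT4 and MYB29 in 6. The MYB29 difference was -1.20 (edgeR adjusted p = 0.297) without Col-0 estradiol replicate 3. In PD-plug SOT18 alone was called in 6 of the 12 fits, those without replicate 1 of either Col-0 treatment, PD-plug estradiol replicate 2 or 3, or PD-plug mock replicate 1 or 3, and 5 genes were called without Col-0 mock replicate 2. In the STAR matrix 3 of the 5 calls of icals3m remained, MAM1, CYP83A1 and SOT18, and CYP83A1 in PD-plug was not called (adjusted p = 0.0594). With only the libraries compared in the fit, SOT18 alone was called in each line.

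The cell type markers moved beside these differences. Sums over all 16 mostly follow the 3 mesophyll genes and do not by themselves measure leaf composition. At 12 h all 16 summed to 17543 to 18865 CPM with estradiol against 15507 to 16623 CPM with DMSO in Col-0, to 14684 to 17766 against 15090 to 16912 CPM in icals3m, and to 11792 to 14276 against 16429 to 18116 CPM in PD-plug. Of the 14 tested, 6 were higher and 1 lower in Col-0. Against the Col-0 effect, 0 were higher and 1 lower in icals3m, and 0 higher and 3 lower in PD-plug. The log2 differences of the 14 ran from -2.98 to 0.25 in icals3m and from -2.95 to 0.40 in PD-plug. At 48 h the sums in icals3m were 19186 to 19347 CPM with estradiol against 23596 to 26251 CPM with DMSO, with 0 higher and 4 lower against Col-0. The part of leaf composition in the results for the 9 genes was not tested.

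The mock libraries of the lines also differed from those of Col-0. At 12 h, mock-treated icals3m stood above mock-treated Col-0 for 7 of the 9 genes and below for none, where 19.3% of all genes were called and 8.77% higher; this comparison was added after the values were seen. CYP79F1 measured 5.50, 11.6 and 17.3 CPM in icals3m against 0.823, 2.33 and 1.93 CPM in Col-0, without overlap, a log2 difference of 2.72 (SE 0.42, edgeR adjusted p = 2.02e-06). BCAT4 measured 8.89, 12.2 and 16.6 CPM against 1.76, 3.63 and 1.44 CPM, a log2 difference of 2.45 (SE 0.34, adjusted p = 2.76e-07). CYP83A1, at 63.9, 70.0 and 81.0 CPM against 20.3, 35.6 and 28.1 CPM, differed by 1.35 (SE 0.18).

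MYB29 (1.58), CYP79F2 (1.55), MAM1 (0.93) and SOT18 (0.81) completed the 7 genes. They were called in all 6 fits without a library and in every alternative setting run for mock comparisons. A fit restricted to the libraries compared was not run for those. With estradiol, icals3m at 12 h was nearer to Col-0: CYP79F1 averaged 3.45 ± 1.21 CPM against 1.76 ± 1.20, and MAM1 70.3 ± 21.1 against 83.0 ± 19.3 CPM (SD, n = 3). Mock-treated PD-plug, which was not tested against mock-treated icals3m, had 3 genes higher than Col-0 where 6.7% of all genes were called: BCAT4 by 1.18 (SE 0.35, edgeR adjusted p = 0.0281), CYP83A1 by 0.66 (adjusted p = 0.0162) and SOT18 by 0.51 (adjusted p = 0.00168). SOT18 kept its call in all 6 fits without a library, and the other 2 genes lost theirs without mock replicate 1 or 3 of Col-0 or of PD-plug, with an adjusted p of 0.0535 to 0.191. BCAT4 also lost its call in the STAR matrix (0.264) and with counts divided by 4 (0.0788). The CALS3 transcript was also higher in mock-treated icals3m at 12 h, by a log2 difference of 1.47 over Col-0, and its part in the difference was not tested. Of the 14 markers, 2 were higher and 1 lower in mock-treated icals3m than in Col-0, with log2 differences from -0.31 to 3.01. All 16 summed to 15090 to 16912 CPM against 15507 to 16623 CPM, sums that mostly follow the mesophyll genes and hide single markers. The part of the markers in these differences was not tested. At the same time point TOC1 averaged 191 ± 10.3 CPM in Col-0 with estradiol and 132 ± 13.0 with DMSO, and 125 ± 8.12 in mock-treated icals3m; the part of the clock in these differences was not tested.

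**Figure D4:**
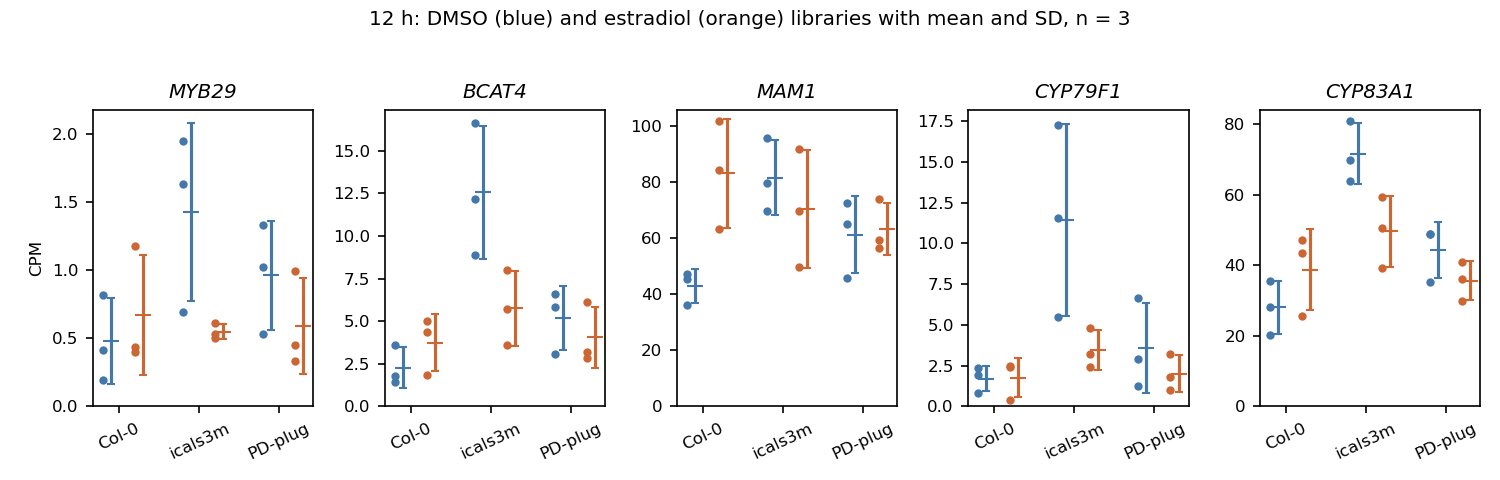
CPM at 12 h of 5 genes in each genotype, DMSO in blue and estradiol in orange, as single libraries with mean and SD (n = 3). The mock libraries of icals3m reach 17.3 CPM for CYP79F1 against at most 2.33 in Col-0, and the estradiol libraries of the 3 genotypes lie closer together.

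At 24 h neither line differed from Col-0 in its effect on any of the 9 genes, where 0.259% and 0.033% of all genes were called, and none had an unadjusted p under 0.05. Standard errors at that time ran from 0.15 for SOT18 to 0.49 for CYP79F2, so the differences were bounded most loosely for CYP79F2 and CYP79F1.

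At 48 h the icals3m effect was higher than the Col-0 effect for 2 genes and lower for none, where 13.4% of all genes were called and 6.26% higher. The median of the 9 was 0.39, against -0.01 for all genes. SOT17 differed by 1.02 (SE 0.28, edgeR adjusted p = 0.00861). Mock-treated icals3m measured 13.0, 13.1 and 10.4 CPM for SOT17 and estradiol-treated icals3m 12.3, 14.8 and 16.5 CPM, overlapping. In Col-0 the same gene was lower with estradiol, as given above, so the difference combined a fall in Col-0 with no called change in icals3m. It was called in all 12 fits without a library, but not in a fit restricted to the libraries compared (adjusted p = 0.0665).

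CYP79F2, the relative of CYP79F1 that acts on long-chain methionine derivatives, differed by 1.58 (SE 0.50, edgeR adjusted p = 0.0261). It measured 3.70, 2.67 and 2.82 CPM with DMSO and 5.61, 3.11 and 5.52 CPM with estradiol in icals3m, against 7.82, 7.62 and 9.43 and then 4.60, 5.08 and 3.30 CPM in Col-0. The treated libraries of both genotypes overlapped, and the mock libraries stood far apart. Its call was kept in 6 of 12 fits without a library, and lost without replicate 3 of any of the 4 groups, icals3m estradiol replicate 1 or icals3m mock replicate 2 (adjusted p of 0.0569 to 0.0765). In PD-plug no gene was called against Col-0 at 48 h, where 5.56% of all genes were, and none had an unadjusted p under 0.05. Between the lines the estradiol effect on SOT18 differed, higher in icals3m by a log2 difference of 0.52 (SE 0.15, edgeR adjusted p = 0.0289), where 5.16% of all genes were called. SOT18 averaged 53.4 CPM with DMSO and 57.3 with estradiol in icals3m, and 70.9 and 53.0 CPM in PD-plug. The call was lost in the STAR matrix (adjusted p = 0.054) and in 6 of 12 fits without a library. Those fits were without icals3m estradiol replicate 1, icals3m mock replicate 2 or 3, PD-plug estradiol replicate 3 or PD-plug mock replicate 1 or 2 (adjusted p of 0.0587 to 0.143).

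The mock libraries again differed at 48 h, now in the other direction. Mock-treated icals3m was lower than mock-treated Col-0 for 4 genes and higher for none, where 12.5% of all genes were called and 6.55% lower, in a comparison added after the values were seen. The genes were CYP79F2 (-1.44, SE 0.36, edgeR adjusted p = 0.00337), SOT17 (-1.21, SE 0.20, adjusted p = 8.72e-06), MYB29 (-0.74, SE 0.24, adjusted p = 0.0312) and SOT18 (-0.68, SE 0.11, adjusted p = 3.87e-06). All 9 values were below 0, with a median of -0.68. The MYB29 call was lost without mock replicate 1 or 2 of Col-0 or mock replicate 2 or 3 of icals3m (adjusted p of 0.0684 to 0.216), and in the STAR matrix (-0.72, adjusted p = 0.24). The other 3 were kept in all 6 fits without a library and in every other setting run for this comparison. In mock-treated PD-plug SOT17 was lower (-0.68, adjusted p = 0.0383), where 3.14% of all genes were called, and its call was lost without mock replicate 1 or 2 of Col-0 or mock replicate 2 or 3 of PD-plug (adjusted p of 0.0568 to 0.318), and in the STAR matrix (0.0514). All 9 values were below 0 in mock-treated PD-plug too, with a median of -0.52. At an unadjusted edgeR p under 0.05 there were 7 genes in icals3m and 5 in PD-plug. Both lines were compared with the same Col-0 mock libraries.

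**Figure D5:**
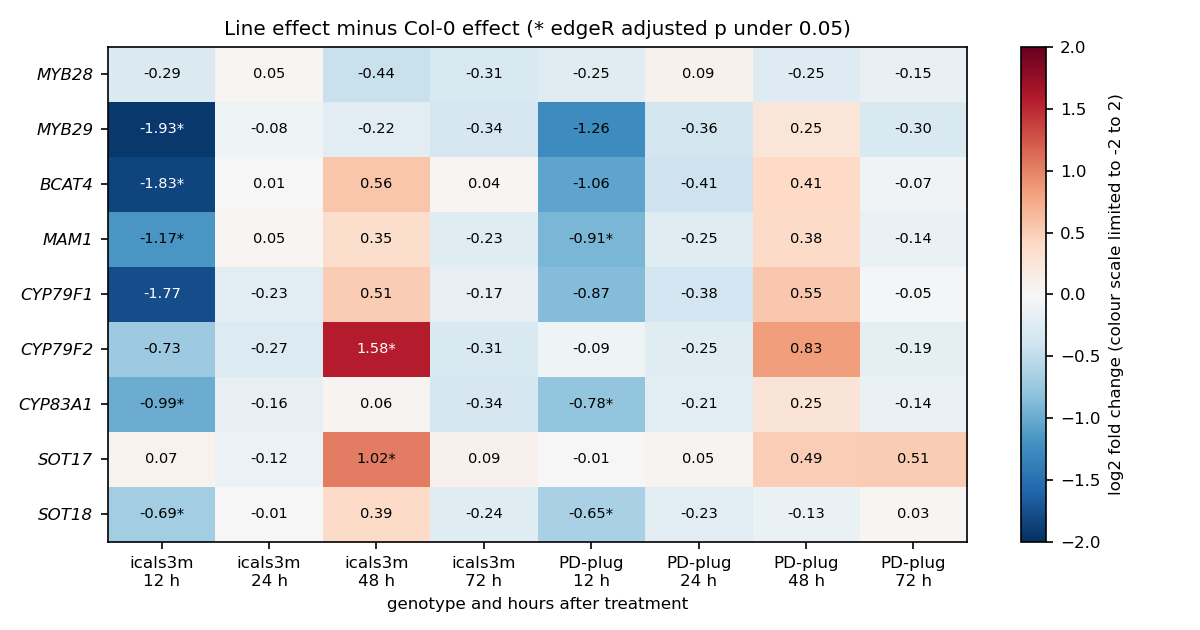
Log2 difference between the estradiol effect in each line and that in Col-0, with an asterisk where the edgeR adjusted p was under 0.05. At 12 h the values of icals3m reach -1.93 for MYB29 and those of PD-plug -1.26, at 24 h none is called, and at 48 h SOT17 and CYP79F2 are called in icals3m, both above 0.

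At 72 h no gene of the 9 was called against Col-0, in icals3m (11.3% of all genes) or in PD-plug (0.0942%), or between the lines (5.35%). The medians of the 9 were -0.24 and -0.14, and none had an unadjusted p under 0.05 in any of the 3 comparisons. Averaged over the 4 times, the mock libraries of icals3m were lower than those of Col-0 for SOT17 (-0.53, SE 0.10, edgeR adjusted p = 3.19e-05) and SOT18 (-0.17, SE 0.05, adjusted p = 0.0176), where 19.1% of all genes were called, and those of PD-plug for SOT17 (-0.38, SE 0.10, adjusted p = 0.00963), where 6.18% were. For SOT18 this average joined opposite directions. Its mock level in icals3m was 1.75 times that of Col-0 at 12 h, and 0.80, 0.63 and 0.71 times at 24, 48 and 72 h. The 3 calls of the averaged mock comparisons held in all 24 fits without a library and in every other setting run for them.

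Of the other 37 tested genes of the pathway, icals3m had 1 higher and 3 lower than Col-0 in its 12 h effect, where 3.16% of all genes were called and 1.63% lower. Their median was -0.31. The lower genes were GS-OX1 (-2.21, edgeR adjusted p = 0.00591), IPMDH1 (-1.40, adjusted p = 0.0244) and BAT5 (-1.35, adjusted p = 0.0196), and the higher was the core enzyme GGP1 (0.81, adjusted p = 0.0216).

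PD-plug had 3 higher and 5 lower at 12 h, where 8.3% of all genes were called and 6.19% lower, with a median of -0.29. The lower genes were the side-chain oxygenases GS-OX1 (-2.21, edgeR adjusted p = 0.0027) and GS-OX2 (-2.07, adjusted p = 0.026), the glucosyltransferase UGT74C1 (-0.52, adjusted p = 2.19e-04), and the breakdown genes NSP1 (-1.35, adjusted p = 0.0102) and ESM1 (-0.59, adjusted p = 0.0078). The higher genes were GGP1 (0.89), APK1 (0.60), which supplies the sulfate donor, and the glucosyltransferase UGT74B1 (0.59). The indole branch gave 2 of 7 genes higher and none lower in each line at 12 h.

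At 48 h icals3m had 9 of the 37 higher than Col-0 and 1 lower, where 13.4% of all genes were called and 6.26% higher. Their median was 0.43. The regulators among them were MYC2, a jasmonate-response factor that partners the MYB activators (2.02, SE 0.48, edgeR adjusted p = 0.00226), and SDI1, a repressor of the pathway under sulfur limitation (2.84, SE 0.80, adjusted p = 0.0118). In icals3m the mean MYC2 level was 23.6 ± 1.38 CPM under mock treatment and 56.2 ± 1.62 CPM under estradiol, while in Col-0 it was 63.3 ± 19.1 and 37.0 ± 9.31 CPM (SD, n = 3). The enzymes were IPMI-SSU3 (1.28), GGP1 (0.69), UGT74B1 (0.53), the oxygenase GS-OH (0.49) and the lyase SUR1 (0.47), and the others were the transporter GTR2 (0.54) and the breakdown gene NSP5 (0.63).

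The gene that was lower at 48 h was ESM1, which steers breakdown towards isothiocyanates. Its difference from Col-0 in icals3m was -0.90 at 24 h, -0.67 at 48 h and -0.67 at 72 h. For PD-plug it was -0.59 at 12 h and -0.50 at 48 h, all of them called. At 72 h, where 11.3% of all genes were called, icals3m had 1 of the 37 higher, the transporter GTR1 (0.75), and 2 lower, ESM1 and UGT74C1 (-0.39). Of the 7 indole genes 3 were lower, CYP79B2 (-1.57, edgeR adjusted p = 0.00107), CYP79B3 (-1.06, adjusted p = 0.00576) and CYP83B1 (-0.73, adjusted p = 0.00969).

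Among themselves the 9 genes varied together from library to library to different degrees. As a description over the 72 libraries, after each group's mean was removed, log2 CPM correlated at r = 0.92 between BCAT4 and CYP83A1, at 0.90 between MAM1 and CYP83A1 and at 0.84 between BCAT4 and CYP79F1. MYB29 correlated at 0.72 with BCAT4 and 0.66 with CYP79F1, and SOT17 with SOT18 at 0.54. MYB28 reached at most 0.30 with any of the others. These libraries share their depth scaling, and the value for MYB28 comes from the matrix in which its counts were uncertain.

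Per kilobase of transcript, MAM1, CYP83A1 and BCAT4 had the highest median levels after 12 h, at 158, 141 and 97.8 CPM per kb, followed by CYP79F1 at 75.6, SOT18 at 53.5 and MYB28 at 33.0 CPM per kb. SOT17, MYB29 and CYP79F2 were lowest at 16.0, 15.2 and 3.41 CPM per kb. The order of levels was not the same in the STAR matrix, where CYP83A1 led at 247, MAM1 had 118, CYP79F1 108, SOT18 107 and BCAT4 22.9 CPM per kb. The total count of BCAT4 was 8.36 times that in the STAR matrix and that of MAM1 2.59 times, against 0.993 for SOT18 and a median of 1.71 over 11857 genes with a mean STAR count above 200. The order of the genes by level is thus tied to the matrix.

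The genes whose pattern over the 24 group means was most like the mean of the 9, after the mean of each time was removed, were AK3 (AT3G02020, r = 0.95), MRSA2 (AT5G07460, r = 0.93) and DJ1F (AT3G54600, r = 0.89) among 17235 candidates. The tenth of this ranking, BBX24, was at 0.82. Of the 9 genes, CYP83A1 was closest to the mean of the other 8 (r = 0.96) and MAM1 least close (r = 0.63).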

How the data were processed

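RNA from painted Arabidopsis leaves was sequenced in 72 libraries, 3 for each of 24 groups formed from the labels' genotype, treatment and time. The authors deposited gene-level expected counts in 2 matrices; the submitters' processing notes name Trim Galore 0.5.0, cutadapt 1.7, HISAT2 2.1.0, STAR 2.5, StringTie 1.3.3 and the TAIR10 build, and which tool made which step of the first matrix is not given in the sources used here. Estimated counts depend on the gene models and on how shared reads were divided, so levels of single genes differed between the matrices. The main matrix was used as deposited and the one named for STAR as an alternative.

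The values were rounded to whole numbers, and genes with a filterByExpr minimum count of 10 were kept, 21241 of 33602. A single edgeR 4.0.16 quasi-likelihood fit of 24 group means was made over all libraries, with TMM scaling and robust trended dispersion in R 4.3.3, leaving 48 residual degrees of freedom. Benjamini-Hochberg adjustment ran over all tested genes within each comparison, and a gene was called at an adjusted p under 0.05. CPM were scaled by TMM, except those of mCherry, which came from the STAR matrix and were scaled by library totals alone. The script was tested on simulated counts. Library totals had a median of 47474144 counts; 3 counts in the smallest library correspond to 0.0941 CPM, and all 9 genes had at least 12 counts in every library. Counting error aside, p-values measure the spread between libraries of pooled leaves.

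The 9 genes, the pathway, indole and marker lists and 4 of the 33 comparisons (mock against mock at 12 and 48 h) were chosen with earlier results of these data known. All 9 genes are named, as are other pathway genes called in a line against Col-0. Replicate numbers of the titles did not pair the libraries. In 1 library, PD-plug 48 h estradiol replicate 1, the total of the main matrix was 1.37 times that of the STAR matrix, against 1.90 or more in the others. Promoters were read from the RefSeq genome of build TAIR10.1. Alternatives were the STAR matrix, DESeq2 1.42.0, RLE size factors, no filter, counts divided by 4 and rounded up, a replicate block, only the libraries compared, and leaving out each library. The fit of only the libraries compared was run for estradiol effects and their differences from Col-0, and for no other comparison.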

Additional observations from a re-analysis of the deposited data

Results flagged for a closer look

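The estradiol effect differed between genotypes in 11 tests of the difference itself (edgeR interaction contrasts, adjusted p under 0.05 over all genes). Against Col-0 at 12 h the icals3m effect was lower for MYB29 by a log2 difference of -1.93, BCAT4 by -1.83, MAM1 by -1.17, CYP83A1 by -0.99 and SOT18 by -0.69. At the same time the PD-plug effect was lower for MAM1 (-0.91), CYP83A1 (-0.78) and SOT18 (-0.65). At 48 h the icals3m effect was higher than that of Col-0 for CYP79F2 (1.58) and SOT17 (1.02), and higher than that of PD-plug for SOT18 (0.52). Both lines were set against the same Col-0 libraries. SOT18 at 12 h in both lines and SOT17 at 48 h were called in all 12 fits that left out a library.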

How the results depend on the processing

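No called log2 fold change of the 9 genes changed its direction under any setting. RLE size factors changed no call. The number of the 9 genes called moved by more than 1.5 times in these comparisons; the cause was not tested. In the STAR matrix it was 3 in place of 5 for icals3m at 12 h, 0 in place of 2 for icals3m at 72 h, 0 in place of 1 for PD-plug at 12 h, 3 in place of 5 for icals3m against Col-0 at 12 h, 0 in place of 1 for icals3m against PD-plug at 48 h and 0 in place of 1 for mock-treated PD-plug against Col-0 at 48 h. With counts divided by 4, PD-plug had 0 at 12 h (in place of 1) and 1 at 72 h (in place of 0), and icals3m against Col-0 at 12 h had 3. Without a filter icals3m at 72 h had 1 and PD-plug at 12 h had 0; DESeq2 gave 2 for PD-plug at 12 h. With only the libraries compared in the fit, icals3m at 12 h had 2, PD-plug 0 at 48 h and 2 at 72 h, icals3m against Col-0 1 at 12 h and 1 at 48 h, and PD-plug against Col-0 1 at 12 h; that fit has fewer samples.

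The replicate numbers do not pair the libraries: the correlations of 36 same-numbered pairs ran from -0.078 to 0.086. With the replicate block the number called was 2 for Col-0 at 48 h (in place of 1), 1 for icals3m at 72 h (in place of 2), 2 for icals3m against Col-0 at 12 h (in place of 5) and 1 for PD-plug against Col-0 at 12 h (in place of 3). These moved by more than 1.5 times. Smaller moves were the loss of CYP83A1 in Col-0 (edgeR adjusted p = 0.0921) and in icals3m (0.0739), both at 12 h. For icals3m against Col-0 at 48 h CYP79F2 was lost (0.0947) and SOT18 gained (0.0309), so the number stayed at 2.

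Leaving out each library gave these ranges of genes called. They were Col-0 12 h 2 to 5, Col-0 48 h 0 to 1, icals3m 12 h 2 to 5, icals3m 48 h 0 to 1, icals3m 72 h 0 to 2, PD-plug 12 h 0 to 2, PD-plug 48 h 0 to 1, icals3m against Col-0 12 h 1 to 6, icals3m against Col-0 48 h 1 to 3, PD-plug against Col-0 12 h 1 to 5, icals3m against PD-plug 48 h 0 to 1, icals3m mock against Col-0 mock all times 2 to 3, PD-plug mock against Col-0 mock all times 1 to 1, Col-0 mock from 12 to 24 h 9 to 9, icals3m mock against Col-0 mock 12 h 7 to 7, icals3m mock against Col-0 mock 48 h 3 to 5, PD-plug mock against Col-0 mock 12 h 1 to 5 and PD-plug mock against Col-0 mock 48 h 0 to 1. The comparisons not listed here gave 0 in all these fits. Depth limits MYB29, CYP79F1 and CYP79F2 most, with as few as 12, 21 and 19 counts in a library at 12 h.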
